A study of Homo sapiens with 9 samples.

Results

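The RNA sequencing libraries of 2 knockout clones of the human hepatoma line Huh-7 were compared with each other. Mko-3 carries a knock out of MTTP and Ako-3 a knock out of APOB, and the groups were chosen by the genotype in the sample labels. Each clone gave 3 libraries, so 6 of the 9 libraries of the series entered the comparison. The other 3 came from the unedited Huh-7 cells (genotype WT, the control) and are given as reference levels without a test. By the labels, cells grown in medium with serum were washed at 80 to 90% confluence and kept overnight without serum before RNA was taken. The labels name no batch. Ako-3 had been made with Cas9 protein and 3 guide RNAs to exon 6 of APOB, whereas Mko-3 came from the group's earlier work. Each knockout is 1 clone, so an effect of the targeted gene and a difference between clones cannot be told apart. The labels call the libraries biological replicates, but they are libraries of 1 clone each, and the p-values measure the spread between such libraries.

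Hepatocytes export triglycerides on particles built around apolipoprotein B (apoB). The microsomal triglyceride transfer protein, MTP, is the product of MTTP; it loads lipid onto apoB in the endoplasmic reticulum (ER) as the chain is made. Without MTP the apoB chain is degraded, and without apoB there is no scaffold to load, so both knockouts stop this export at the same step through different proteins. The comparison asks where RNA levels differ between hepatoma cells that lack one or the other of these proteins.

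The sequences below show the exon targeted in Ako-3, as the unedited reference, and the primers of the study. The paper reports point mutations and a deletion at or between the guide sites in this clone, which are not shown. The primers show which parts of both mRNAs the qRT-PCR read, since those assays and the gene counts do not cover the same bases. The APOB transcript lies at chr2:21001429-21044073 on the minus strand (GRCh38, 29 exons in the GENCODE v44 transcript), and that of MTTP at chr4:99574824-99623997 on the plus strand (18 exons). The targeted coding exon 6 of APOB spans chr2:21037100-21037255 and has 156 bases, a multiple of 3. The genotyping primers lie in the introns on either side of it. The APOB qRT-PCR primers lie far downstream in exon 26, and the MTTP pair joins exons 2 and 3. Gene counts sum reads over all exons of a gene.
APOB exon 6, minus strand of chr2: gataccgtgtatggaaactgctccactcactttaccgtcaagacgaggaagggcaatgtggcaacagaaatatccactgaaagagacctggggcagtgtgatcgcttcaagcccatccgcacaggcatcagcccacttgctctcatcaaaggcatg
APOB genotyping forward primer, chr2:21037330-21037352: tctgctttttctttcacgatccc
APOB genotyping reverse primer, chr2:21036999-21037018: gcaggctgtcctcaaaggtg
APOB qRT-PCR forward primer, chr2:21006433-21006452: cgctaaaggagcagttgacc
APOB qRT-PCR reverse primer, chr2:21006277-21006296: tcactgaagaccgtgtgctc
MTTP qRT-PCR forward primer, chr4:99582035-99582055: tgtggccttactatggaggaa
MTTP qRT-PCR reverse primer, chr4:99583479-99583499: aaggagcgtaggtctttgcag

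The libraries held 14638727 to 20179760 counted reads, and 22777 to 24276 genes had a count. Levels are given as CPM, counts per 1000000 reads of a library size scaled by the trimmed mean of M-values (TMM) over the 9 libraries. Pairs of libraries of the same clone correlated at r = 0.991 to 0.992 over genes on the log scale, and pairs across the clones at 0.974 to 0.976, which is a description of these libraries. Mitochondrial genes took 7.06 to 7.40% of the counts in Ako-3, 5.75 to 5.82% in Mko-3 and 5.52 to 6.17% in control. All 10 hepatocyte markers were at or above 1 CPM in every library, as the hepatoma label requires. Markers of other cell types were at 0 in part. The endothelial markers KDR and TEK, the macrophage marker CD163 and the biliary marker KRT7 had no counts in either clone, but LYZ (lysozyme) and CD14 of the 5 macrophage and leukocyte markers were detected, at means of 334 and 10.5 CPM in Ako-3 and 339 and 7.37 CPM in Mko-3. That list summed to 333 to 363 CPM in Ako-3 and 335 to 361 CPM in Mko-3. PECAM1, an adhesion protein of endothelium, was called lower in Mko-3 (-1.05 ± 0.06) from 109, 107 and 101 CPM in Ako-3 to 52.8, 52.6 and 48 CPM, whereas CDH5, the cadherin of endothelium, was not called and lay the other way, at 4.22 and 6.49 CPM (0.61 ± 0.17; adjusted p = 0.00263). The 5 endothelial markers summed to 105 to 114 CPM in Ako-3 and 55.1 to 60.4 CPM in Mko-3, nearly all of it PECAM1. The summed level of the hepatocyte markers was 22324 to 23449 CPM in Ako-3 and 18542 to 19426 CPM in Mko-3.

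MTTP was low in Mko-3 but not absent, and APOB was low in Ako-3 but still abundant. MTTP was at 599.9, 576 and 542 CPM in the Ako-3 libraries, at 87.3, 90.7 and 82.9 CPM in Mko-3 and at 635, 603 and 663 CPM in control. Its log2 fold change (Mko-3 over Ako-3, the direction of all fold changes here) was -2.72 ± 0.05 (SE, n = 3 libraries per clone; edgeR quasi-likelihood test, Benjamini-Hochberg adjusted p = 2.91e-59). The targeted gene was thus low in every library labelled Mko-3. APOB was at 1419.8, 1258 and 1266 CPM in Ako-3, 3115, 3408 and 3250.0 CPM in Mko-3 and 2683, 3508 and 3871 CPM in control. Thus APOB was 1.31 ± 0.04 log2 units higher in Mko-3 (edgeR quasi-likelihood test, Benjamini-Hochberg adjusted p = 4.16e-28), and the Mko-3 libraries lay within the range of the control libraries. Reads from exons outside the cut region count for APOB in Ako-3, so the remaining level says nothing of an intact coding frame.

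Besides APOB and MTTP, the genes that the study followed by qRT-PCR after APOB knock out differed little between the clones, and none was called (a call needed both a log2 fold change of 1 or more in either direction and an adjusted p of at most 0.05). GC, the gene of the vitamin D binding protein, was at 872, 862 and 827 CPM in Ako-3 and 844, 815 and 824 CPM in Mko-3, and at 179, 151 and 175 CPM in control. Its difference between the clones was -0.05 ± 0.04 log2 units (edgeR quasi-likelihood test, Benjamini-Hochberg adjusted p = 0.297), and the clones overlapped while both lay far above the control libraries. C1S, a protease of the classical complement pathway, was at 199, 197 and 193 CPM in Ako-3, 227, 214 and 235 CPM in Mko-3 and 82.5, 75.6 and 92.7 CPM in control, a log2 fold change of 0.20 ± 0.04 between the clones. SERPING1, which inhibits C1S, was at 139, 138 and 128 CPM in Ako-3 and 126, 115 and 124 CPM in Mko-3 and at 62.3, 53.6 and 65.5 CPM in control. For both genes every Ako-3 and every Mko-3 library lay above every control library. HSPA5, the ER chaperone BiP, was at 1059.6, 1087 and 1086 CPM in Ako-3, 1312, 1291 and 1251 CPM in Mko-3 and 572, 709.9 and 571 CPM in control. The clones did not overlap for HSPA5, with a small difference of 0.25 ± 0.03 log2 units (edgeR quasi-likelihood test, Benjamini-Hochberg adjusted p = 3.77e-09). Every library of both clones lay above every control library for HSPA5. The study's qRT-PCR found no significant difference in BiP mRNA between Ako and Huh-7 cells. For those cells the paper describes no step without serum, so the culture was not the same. The levels here were not tested against control. The stress regulators ATF4, XBP1 and ATF6 had log2 fold changes of -0.06, -0.13 and -0.03.

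**Figure D1:**
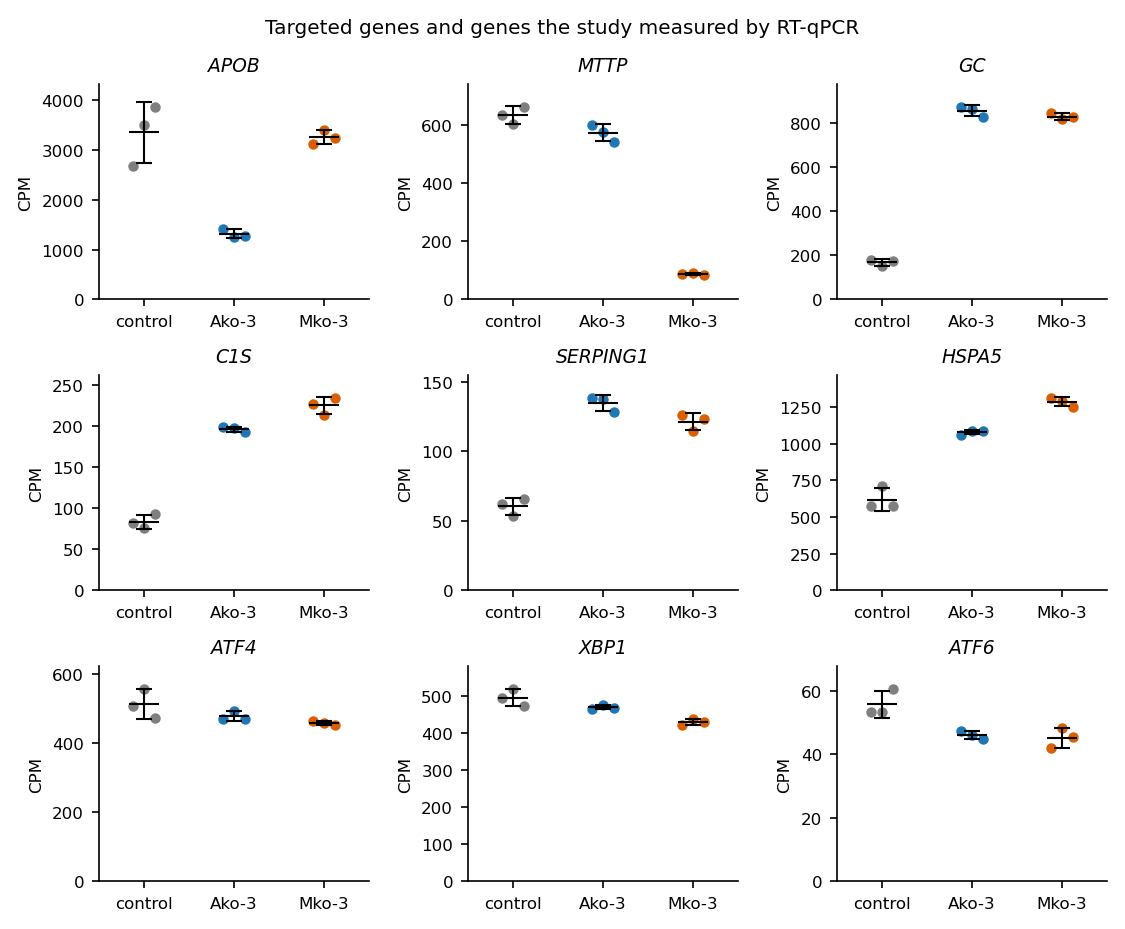
Levels in CPM (TMM over the 9 libraries) of the targeted genes and of 7 genes also measured by qRT-PCR. Each point is 1 library, and the horizontal mark and bars are the mean ± SD of the 3 libraries of control (grey), Ako-3 (blue) and Mko-3 (orange). APOB is low in Ako-3 and MTTP in Mko-3, whereas GC, C1S, SERPING1 and HSPA5 are higher in both clones than in control. For HSPA5 (BiP) the study's qRT-PCR, for which no step without serum is described, found no significant difference between Ako and control cells.

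Across the transcriptome, 890 of the 15528 genes tested were called, which is 5.73% of them. In Mko-3, 351 (2.26%) were higher and 539 (3.47%) lower than in Ako-3. The absolute log2 fold change was at least 2 for 103 of the higher and 120 of the lower genes. The median log2 fold change of all genes tested was 0.0048, which the TMM scaling sets near 0. With the adjusted p alone 6462 genes (41.6%) passed, 3270 higher and 3192 lower. Of the called genes 711 were protein coding, 68 were long intergenic noncoding RNAs and 49 antisense RNAs. The libraries of the clones did not overlap for 872 of the 890 called genes, against 49.6% of all genes tested.

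**Figure D2:**
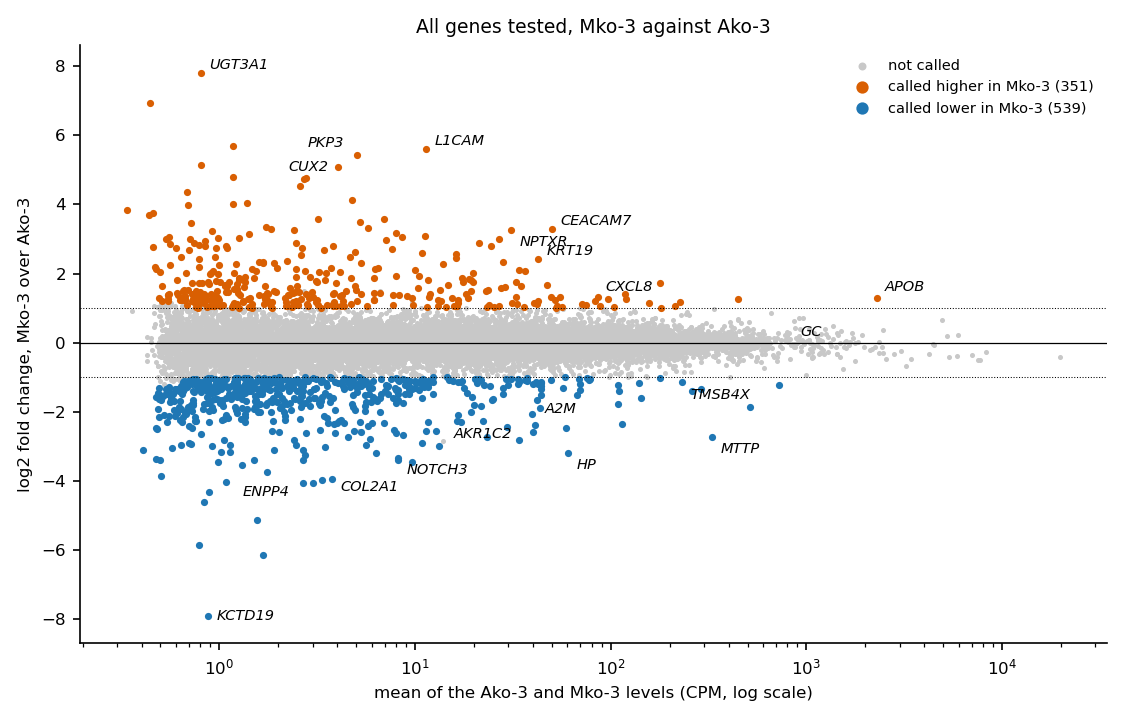
Log2 fold change of Mko-3 over Ako-3 against the mean level of both clones (CPM, log scale) for the 15528 genes tested. Orange points are the 351 genes called higher in Mko-3, blue points the 539 called lower and grey points the rest. APOB and MTTP stand out at high levels, while most of the widest changes are of genes under 10 CPM.

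Of 17 lipoprotein assembly genes tested, the targeted APOB rose and MTTP fell (11.8% called, against 5.73% of all genes). The other 15 were not called, and the list median was 0.06. Among the other apolipoproteins 2 of 14 fell and 1 rose (21.4% called). Of the 14, 12 had a log2 fold change below 0, and the median was -0.61. Without Mko-3 replicate 2 this list had 5 calls. APOH, a plasma glycoprotein that binds phospholipids, was at 169, 174 and 165 CPM in Ako-3, 46.6, 53 and 48.9 CPM in Mko-3 and 72.2, 71.7 and 70.9 CPM in control, a fall of 1.78 ± 0.05 log2 units. APOA5, an activator of lipoprotein lipase on triglyceride-rich particles, was at 16.6, 22.4 and 15.5 CPM in Ako-3, 5.61, 7.03 and 7.11 CPM in Mko-3 and 10.6, 9.11 and 9.32 CPM in control (log2 fold change -1.47 ± 0.13). In both genes no Mko-3 library reached the lowest Ako-3 or control library. APOL1, a component of dense high density lipoproteins, went the other way, from 1.83, 2.5 and 2.9 CPM in Ako-3 to 8.83, 5.88 and 7.77 CPM in Mko-3, with 1.88, 0.792 and 1.39 CPM in control (log2 fold change 1.63 ± 0.19). APOA1 and APOA2, the main proteins of high density lipoprotein, were just short of the fold threshold at -0.94 ± 0.04 and -0.98 ± 0.04, with mean levels of 1312 and 537 CPM in Ako-3 and 683 and 272 CPM in Mko-3.

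Lists of lipid synthesis, storage, breakdown and bile acids held 0 to 4 calls each, and are to be read against the 5.73% called over all genes. Fatty acid synthesis had 3 falls among 20 genes tested (15%) and no rise, with a median of -0.40 and 16 of the 20 below 0. MLXIPL encodes ChREBP, the glucose-responsive regulator of lipogenic genes. It was at 41, 44.3 and 39.9 CPM in Ako-3 and 15.9, 16.3 and 12.4 CPM in Mko-3 and at 69.2, 58 and 66.2 CPM in control, so Mko-3 was below both other groups (log2 fold change -1.49 ± 0.09). SCD5, a stearoyl-CoA desaturase, and ELOVL4, an elongase of very long chain fatty acids, fell by 1.37 ± 0.15 and 2.58 ± 0.30. Cholesterol synthesis and uptake had no call among 25 genes by edgeR and 0 by DESeq2. Of the 25, 21 had an unadjusted p under 0.05 in edgeR, 21 were below 0, and the median was -0.29. With the adjusted p alone 2 rose and 19 fell, against 21.1% and 20.6% of all genes. Its member with the smallest adjusted p, IDI1 of the mevalonate pathway, was at 202, 219.9 and 208 CPM in Ako-3 and 143, 151 and 134 CPM in Mko-3, a difference of -0.56 ± 0.05. Fatty acid oxidation and ketogenesis had 2 falls among 31 genes (6.45%), the ketone body enzyme BDH1 (-1.65 ± 0.39) and the coactivator PPARGC1A (-1.64 ± 0.54), both under 2 CPM in the clones. Both passed the count filter only through their Ako-3 libraries, so the filter itself favoured falls here. BDH1, for one, had 29, 25 and 26 counts in Ako-3 and 9, 7 and 8 in Mko-3. The list held 0 calls where every library had to hold at least 10 counts. It also held 0 in the test against a log2 fold change of 1. Without Mko-3 replicate 3 PPARGC1A was no longer called (-1.25). Of 27 genes of lipid droplets and lipolysis 2 fell (7.41%), G0S2, an inhibitor of the lipase ATGL, and the droplet coat gene PLIN1, which were also low at means of 4.54 and 1.07 CPM in Ako-3 and 1.28 and 0.453 CPM in Mko-3. PLIN1 lost its call without Ako-3 replicate 2 (-0.87) or Mko-3 replicate 3 (-1.15), and it too passed the count filter only through Ako-3. In bile acid synthesis and transport, 3 of 21 genes rose (14.3%) and 1 fell, and none of the 4 passed glmTreat, the test against a log2 fold change of 1. The hormone FGF19, which represses bile acid synthesis, was at 17.2, 14.1 and 14.4 CPM in Ako-3, 31.8, 31.6 and 30.1 CPM in Mko-3 and 47.8, 43.1 and 46.8 CPM in control (log2 fold change 1.03 ± 0.09). The uptake carriers SLCO1B1 and SLCO1B3 rose from means of 0.427 and 0.968 CPM to 1.35 and 1.97 CPM. CYP8B1 fell, but its libraries overlapped and the means were 0.698 and 0.29 CPM. CYP8B1, SLCO1B3 and FGF19 each lost the call when certain single libraries were left out. CYP8B1 kept its call only without Ako-3 replicate 1 or Mko-3 replicate 3. SLCO1B3 was at 0.85 without Ako-3 replicate 1 and at 0.91 and 0.94 without Mko-3 replicate 1 or 3. FGF19 fell just under the fold threshold without Ako-3 replicate 2 (0.98) or 3, while its adjusted p stayed under 0.05.

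Some genes were named after their values were seen. PLTP and LPCAT1 act on phospholipids and were among the more abundant called genes. PLTP, which transfers phospholipids between lipoproteins, was at 376, 379 and 379.8 CPM in Ako-3, 151, 146 and 138 CPM in Mko-3 and 337, 341 and 312 CPM in control, a fall of 1.38 ± 0.04 log2 units. LPCAT1, which rebuilds phosphatidylcholine from its lyso form, was at 69.6, 62.8 and 60.4 CPM in Ako-3, 183, 166 and 165 CPM in Mko-3 and 51.8, 64.6 and 54.7 CPM in control, a rise of 1.42 ± 0.05. For both genes the Ako-3 means were nearer to control than the Mko-3 means were. The high-level genes that rose also held HSPG2, the basement membrane proteoglycan perlecan (261 CPM in Ako-3 and 632 CPM in Mko-3), and CTSE, the protease cathepsin E (81.8 and 273 CPM). RBP2, a cellular retinol binding protein, fell from 192 to 37.6 CPM.

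Acute phase genes, which code for plasma proteins that the liver secretes, were the list with the most falls. Among acute phase and plasma carrier genes 11 of 28 fell and none rose (39.3% called, against 5.73% of all genes), 25 of the 28 were below 0 and the median was -0.70 against 0.0048 over all genes tested. When the test asked for a change beyond a log2 fold change of 1 (glmTreat), 5 of the 11 passed. HP encodes haptoglobin, which binds free haemoglobin. It was at 103, 106 and 119.5 CPM in Ako-3, 12.2, 14.2 and 9.66 CPM in Mko-3 and 39.6, 37 and 36.7 CPM in control. The 3 groups did not overlap, with Ako-3 the highest and Mko-3 the lowest, and the log2 fold change was -3.18 ± 0.08 (edgeR quasi-likelihood test, Benjamini-Hochberg adjusted p = 5.63e-30). A2M, the protease trap alpha-2-macroglobulin, had the same order, at 108, 90.4 and 100.2 CPM in Ako-3, 18.1, 19 and 17.2 CPM in Mko-3 and 35, 27.7 and 39.2 CPM in control (log2 fold change -2.46 ± 0.07). ITIH2, a heavy chain of the inter-alpha-trypsin inhibitor, was more abundant, at 1021, 1014 and 1006 CPM in Ako-3, 410.1, 464 and 426 CPM in Mko-3 and 280.0, 378 and 299 CPM in control. Here Mko-3 lay above every control library and below every Ako-3 library (-1.23 ± 0.04). LBP, the lipopolysaccharide binding protein, was at 99.3, 95.8 and 94.9 CPM in Ako-3, 44.6, 37.8 and 44 CPM in Mko-3 and 108, 63.9 and 97.3 CPM in control, so that Mko-3 was the lowest group (-1.2 ± 0.06). The other 7 falls were AHSG and FETUB, both fetuins, HPX, a haem carrier, HAMP, the iron hormone hepcidin, ORM2, SAA1 and SAA2, from -1.86 for AHSG to -1.07 for ORM2 and -1.07 for SAA1. AHSG was the most abundant of these at 805 ± 64.4 CPM in Ako-3 and 222 ± 15.5 CPM in Mko-3 (SD, n = 3). HP, ORM2, SAA1 and SAA2 each have a near copy, between which counting could divide reads. The acute phase genes SERPINA1 and TTR and the carriers ALB and TF were not called, at -0.48, -0.30, -0.51 and -0.68.

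The promoters of called members were read where the RefSeq table (GRCh38.p14) held them, which was so for 4 of the 11, HPX, AHSG, HAMP and FETUB. The 250 bases before each start site were searched on both strands for TTGCNNAA, a core of C/EBP sites, TTCNNNGAA, a core of STAT sites, and GTTAAT, a part of HNF1 sites. C/EBP and STAT factors drive many acute phase genes. The C/EBP letters were found in HPX, with the first base at position -203 from the start site, and in AHSG at -59, and the STAT letters in HAMP at -93. FETUB held none of these words, and none of the 4 promoters held GTTAAT. Of the 18 tested members of the list with an entry, 38.9% held the C/EBP letters, 16.7% the STAT letters and 33.3% GTTAAT. The shares over the 10717 genes tested with an entry were 6.08%, 5.54% and 3.53%. The list shares take called and uncalled members together, so they describe the list and not the falls. A link between these words and the falls was not tested. The words do not overlap each other in the sequences shown, in which capitals mark the match.
HPX, chr11:6440988-6441237, minus strand: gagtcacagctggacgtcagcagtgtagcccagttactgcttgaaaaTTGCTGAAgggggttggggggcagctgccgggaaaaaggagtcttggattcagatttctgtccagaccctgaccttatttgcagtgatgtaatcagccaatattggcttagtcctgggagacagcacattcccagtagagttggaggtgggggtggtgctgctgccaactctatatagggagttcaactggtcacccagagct
AHSG, chr3:186612810-186613059, plus strand: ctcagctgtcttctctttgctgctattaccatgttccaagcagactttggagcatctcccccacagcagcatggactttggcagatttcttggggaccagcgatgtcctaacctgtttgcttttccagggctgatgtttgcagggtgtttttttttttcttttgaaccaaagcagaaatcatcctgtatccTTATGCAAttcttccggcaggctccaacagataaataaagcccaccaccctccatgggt
HAMP, chr19:35282278-35282527, plus strand: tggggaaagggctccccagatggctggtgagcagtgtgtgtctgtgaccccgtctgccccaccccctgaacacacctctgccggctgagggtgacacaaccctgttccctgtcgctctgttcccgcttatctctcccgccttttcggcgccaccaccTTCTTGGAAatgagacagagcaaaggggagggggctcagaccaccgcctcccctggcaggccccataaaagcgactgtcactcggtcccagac

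Of 31 complement genes tested 8 fell and none rose, which is 25.8% lower against 3.47% of all genes, and the other 23 were not called. The median was -0.36. C4BPA, which holds the classical pathway in check, was at 167, 160.4 and 150.3 CPM in Ako-3, 59.2, 59.9 and 61.7 CPM in Mko-3 and 70.3, 52.7 and 73.9 CPM in control. Mko-3 was at the control level here and Ako-3 above it (log2 fold change -1.4 ± 0.05). C8G, a subunit of the membrane attack complex, was at 13.1, 15.6 and 10.5 CPM in Ako-3, 4.98, 4.91 and 4.24 CPM in Mko-3 and 8.33, 6.4 and 6.99 CPM in control (-1.47 ± 0.14). C4A and C4B, copies of the C4 gene, fell by 2.68 and 2.57, and CFHR2 and CFHR5, relatives of factor H, fell by 2.56 and 1.61. The values of these near-identical genes are uncertain, since the authors' counting could divide reads between the copies. C7 fell by 1.13. Among 31 genes of coagulation and fibrinolysis 3 fell and 1 rose (12.9% called, against 5.73% of all genes), with a median of -0.33. PLG, plasminogen, was at 22.4, 21.5 and 21.5 CPM in Ako-3, 4.08, 3.26 and 3.79 CPM in Mko-3 and 6.07, 6.93 and 6.99 CPM in control, and SERPINF2, the inhibitor of plasmin, at 392, 448 and 412 CPM in Ako-3, 170.1, 164 and 158 CPM in Mko-3 and 390.4, 309 and 345 CPM in control. FGG, the fibrinogen gamma chain, was at 152, 153 and 153 CPM in Ako-3, 65, 67.3 and 64.4 CPM in Mko-3 and 163, 143 and 158 CPM in control. FGG fell by 1.22 ± 0.05, while FGB, the beta chain, was not called (0.23 ± 0.04). TFPI2, a protease inhibitor, rose from 9.96, 8.61 and 11.1 CPM to 22.5, 23 and 24.8 CPM (1.25 ± 0.10).

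**Figure D3:**
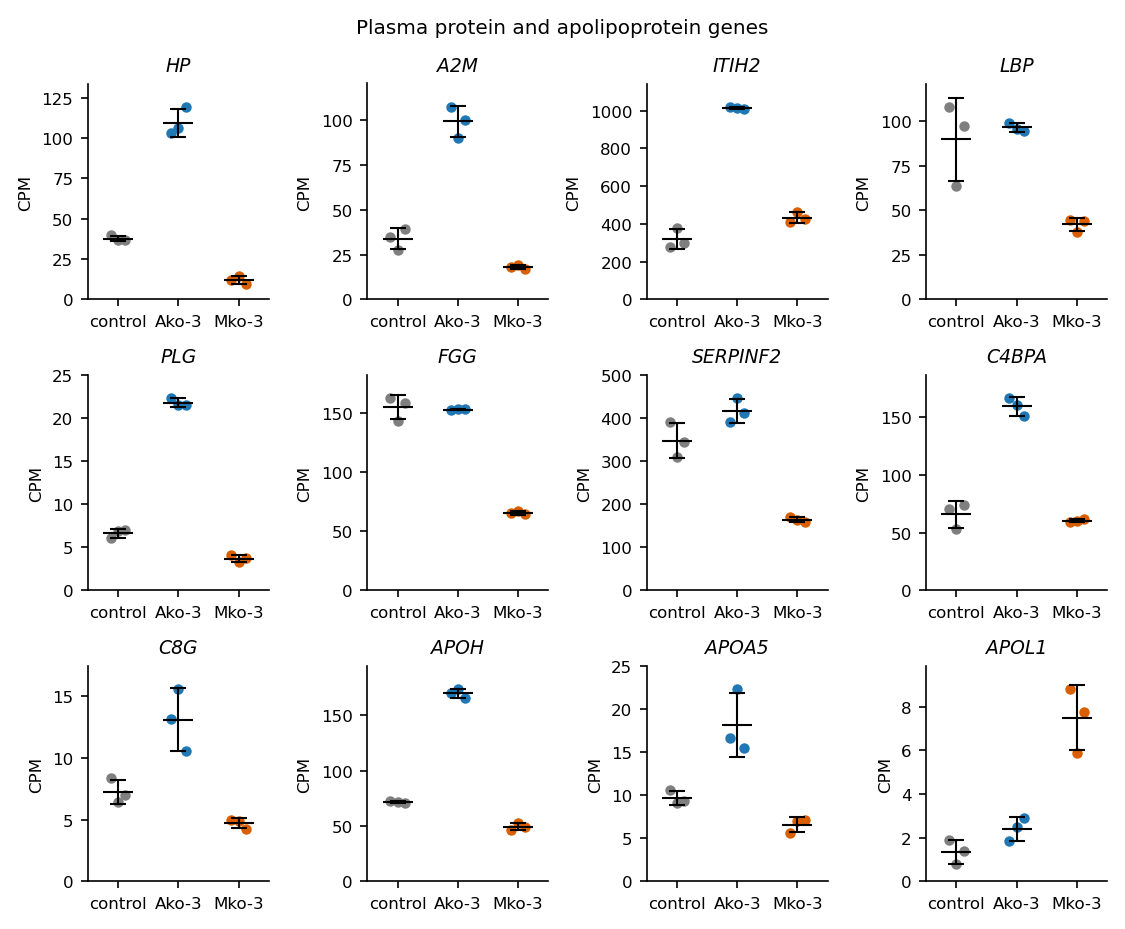
Levels in CPM of plasma protein and apolipoprotein genes, with 1 point per library and the mean ± SD of the 3 libraries of control (grey), Ako-3 (blue) and Mko-3 (orange). Mko-3 is below Ako-3 in all but APOL1, while the control libraries lie near Ako-3 for LBP, FGG and SERPINF2 and near Mko-3 for C4BPA.

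Conjugation enzymes had 8 falls and 1 rise in 29 genes (27.6% lower, against 3.47% of all genes; median -0.29), and glmTreat called 1 gene of this list. GSTA1, a glutathione transferase, was at 17.3, 16.4 and 19.1 CPM in Ako-3, 1.53, 1.89 and 1.37 CPM in Mko-3 and 1.88, 3.23 and 3.44 CPM in control, so that Ako-3 stood apart from both other groups (-3.45 ± 0.16). SULT2A1, a sulfotransferase of steroids and bile acids, was at 12.9, 13.5 and 15.8 CPM in Ako-3, 5.38, 7.03 and 6.33 CPM in Mko-3 and 12.1, 11.3 and 12.1 CPM in control, with Mko-3 alone lower. The glucuronosyltransferase genes UGT2B4 and UGT2A3 fell by 1.16 and 1.14, while UGT2B15 rose by 1.66. The GSTA and UGT2B genes have near copies. Of 25 cytochrome P450 genes 1 rose, CYP4F11 (1.41 ± 0.20), and 1 fell, the aromatase gene CYP19A1, from 18.8, 18 and 12.5 CPM to 5.61, 5.14 and 5.42 CPM. The share called in this list was 8%, against 5.73% of all genes.

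The aldo-keto reductases split. AKR1C2 was at 67.2, 65.8 and 72.3 CPM in Ako-3, 11.2, 11.3 and 11.9 CPM in Mko-3 and 32.2, 27.5 and 36 CPM in control (-2.58 ± 0.08), and its near copy AKR1C1 fell by 2.05 ± 0.08. AKR1C4 and AKR1B1 rose by 2.14 ± 0.35 and 1.01 ± 0.29, at means under 3 CPM, and AKR1B1 was at 0.74 and 0.94 and not called without Ako-3 replicate 1 or Mko-3 replicate 1. These were the only calls among 26 NRF2 targets and aldo-keto reductases (15.4%, against 5.73% of all genes), and the median was 0.03. All 4 metallothionein genes that could be tested rose (median 1.74). MT1E, MT1F and MT1X passed the count filter only through their Mko-3 libraries, so the filter itself favoured rises here. MT1E, for one, had 7, 6 and 2 counts in Ako-3 and 35, 54 and 40 in Mko-3. MT2A was at 4.76, 2.34 and 3.01 CPM in Ako-3, 9.0, 8.11 and 9.85 CPM in Mko-3 and 57.5, 43.3 and 40.3 CPM in control (1.43 ± 0.18), so both clones were far below control. MT1E, MT1F and MT1X rose by 3.15, 1.82 and 1.65 and were at most 3.08 CPM in a clone. Metallothioneins bind zinc and copper, and their short, similar sequences leave their counts uncertain. With glmTreat 1 metallothionein was called, and 1 was called where every library had to hold at least 10 counts. Of the other 8 listed, 7 were at or under 3 counts in every library of both clones.

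In sugar and amino acid metabolism the calls were mostly falls, as were 539 of the 890 calls over all genes. PCK1, the entry enzyme of gluconeogenesis, was at 68.9, 74.1 and 62.4 CPM in Ako-3, 20.7, 15.8 and 19 CPM in Mko-3 and 84.6, 64.7 and 75 CPM in control (-1.89 ± 0.08). PKLR, the liver pyruvate kinase, was at 36.8, 38.1 and 38 CPM in Ako-3, 12.3, 12.2 and 10.9 CPM in Mko-3 and 31.6, 24.7 and 29 CPM in control (-1.67 ± 0.09). In both genes Mko-3 was the lowest group. The glucose transporter SLC2A2 and G6PC, the catalytic subunit of glucose-6-phosphatase, fell by 1.95 and 1.0. G6PC lay at the threshold and lost its call without Ako-3 replicate 1, Ako-3 replicate 2 (-0.98) or Mko-3 replicate 1 (-0.93). ENO2, the enolase of neurons, rose from 7.94, 7.54 and 5.73 CPM in Ako-3 to 23.6, 22.2 and 21.3 CPM in Mko-3, with 25, 16.3 and 20.5 CPM in control. These 5 were the calls among 31 genes of glycolysis and gluconeogenesis (16.1%, against 5.73% of all genes). Of the 31, 16 were above 0 and 15 below, with a median of 0.015. Of 32 genes of the urea cycle and amino acid catabolism 4 fell (12.5%, against 3.47% of all genes) and none rose (median -0.40). Of these 4 falls glmTreat left 2. ARG1, the arginase of the urea cycle, was at 65.6, 72.5 and 57.4 CPM in Ako-3, 24.7, 21.6 and 22.2 CPM in Mko-3 and 23.5, 27.4 and 26.2 CPM in control, and MAT1A, which makes S-adenosylmethionine, at 31.8, 32 and 29.8 CPM in Ako-3, 7.25, 8.74 and 11.1 CPM in Mko-3 and 15.4, 13.3 and 14.9 CPM in control. KYNU and GPT fell by 1.29 and 1.25. Of 19 genes of the insulin and IGF axis the same PCK1 and G6PC were the calls (10.5%), with a median of -0.015. Of 19 iron genes the call was HAMP (-1.56 ± 0.22), which is 5.26%.

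Of 44 hepatocyte transcription factors and nuclear receptors tested 1 was called, RORA, which rose from 2.08, 3.31 and 2.49 CPM in Ako-3 to 9.57, 9.08 and 10.5 CPM in Mko-3 with 6.88, 7.46 and 8.21 CPM in control (1.87 ± 0.17). The median was -0.11, and 2.27% of this list were called, against 5.73% of all genes. HNF4A and FOXA2 were at -0.40 ± 0.04 and -0.40 ± 0.05, below the fold threshold. AFP, the fetal serum protein, was at 3856 ± 86.2 CPM in Ako-3 and 6050.2 ± 219 CPM in Mko-3 (SD, n = 3), a log2 fold change of 0.65 that did not reach the threshold.

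Stress and cell cycle lists held 0 to 2 calls each. Of 36 ER chaperones and unfolded protein response genes 1 was called, ERO1B, an oxidase of disulfide formation, which was at 13.8, 11.3 and 12 CPM in Ako-3 and 4.19, 4.23 and 2.55 CPM in Mko-3 and at 17.2, 13.3 and 15.4 CPM in control. The median of that list was 0.11, 28 of the 36 were above 0, and 2.78% were called. Among 42 ATF4 targets GDF15 rose and NUPR1 fell (median 0.02, 4.76% called). Both shares lay below the 5.73% of all genes. The stress cytokine GDF15 was at 67.4, 76.1 and 66.5 CPM in Ako-3, 175, 169.6 and 161 CPM in Mko-3 and 258, 247 and 227 CPM in control, and NUPR1, a stress-induced chromatin protein, at 19.1, 18.9 and 20.4 CPM in Ako-3, 3.4, 2.28 and 4.31 CPM in Mko-3 and 10.5, 9.37 and 9.44 CPM in control. In both genes the clones did not overlap, and GDF15 was in every clone library below every control library. No gene was called among 44 of the DNA replication fork (median 0.04) and 54 of mitosis (median 0.01) by edgeR, nor by DESeq2, and in edgeR the unadjusted p was under 0.05 for 25 of the 44 and 25 of the 54. With the adjusted p alone 12 rose and 9 fell in the former and 8 rose and 11 fell in the latter. Of all genes tested 21.1% rose and 20.6% fell by the adjusted p alone. The members with the smallest adjusted p were POLD1, a DNA polymerase subunit, at -0.45 ± 0.05, and TTK, a spindle checkpoint kinase, at -0.65 ± 0.07.

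Of 41 growth factor and early response genes 5 rose (12.2%, against 2.26% of all genes) and 1 fell, and the other 35 were not called. The median was 0.39, and with glmTreat 3 were called. AREG, a ligand of the EGF receptor, was at 4.4, 5.65 and 4.11 CPM in Ako-3, 25.8, 19.2 and 24.2 CPM in Mko-3 and 31.7, 16 and 26.5 CPM in control (2.28 ± 0.13). DUSP5, a phosphatase induced by ERK signalling, was at 8.49, 7.69 and 7.76 CPM in Ako-3, 24.7, 27.3 and 29 CPM in Mko-3 and 25.7, 25.4 and 25.8 CPM in control. DUSP4, its relative, was at 27.8, 25.3 and 25.6 CPM in Ako-3, 54.9, 55.3 and 62.5 CPM in Mko-3 and 41.8, 36.2 and 38.6 CPM in control. For AREG and DUSP5 the Mko-3 levels lay close to control and Ako-3 was low. PDGFB and FGF19 rose by 1.75 and 1.03, and the receptor FGFR1 fell by 1.5.

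Of 32 genes of integrins, laminins and matrix 6 rose (18.75%, against 2.26% of all genes) and none fell (median 0.38). The median was 0.21 with no filter on low counts and 0.20 with DESeq2. SPARC, a collagen binding matrix protein, was at 3.42, 6.06 and 5.56 CPM in Ako-3, 27.8, 25.1 and 29.6 CPM in Mko-3 and 34.8, 25.7 and 32.7 CPM in control (2.44 ± 0.12). THBS1, thrombospondin 1, was at 33, 31.8 and 28.7 CPM in Ako-3, 72.1, 71.1 and 75.4 CPM in Mko-3 and 42.3, 49.8 and 43 CPM in control. SPP1, osteopontin, was at 0.0611, 0.102 and 0.463 CPM in Ako-3 and 4.81, 4.74 and 5.22 CPM in Mko-3 and was under 1 CPM in control. With 1, 2 and 8 counts in Ako-3, SPP1 passed the count filter only through Mko-3. LOXL2, ITGB6 and HSPG2 rose by 1.87, 1.31 and 1.27. Of 22 collagen genes 7 fell and 2 rose (40.9% called, against 5.73% of all genes), with a median of -0.34. That median turned to 0.04 with no filter on low counts, to 0.07 with DESeq2 and to 0.18 with at least 10 counts in every library, where 1 collagen was called. COL2A1 was at 8.18, 5.7 and 7.41 CPM in Ako-3 and 0.566, 0.457 and 0.326 CPM in Mko-3, both far below the 81.3, 94 and 74.4 CPM of the control libraries. COL6A1 was at 33.9, 36.4 and 31.4 CPM in Ako-3, 11.3, 8.74 and 8.22 CPM in Mko-3 and 75.2, 59.8 and 66.4 CPM in control (-1.84 ± 0.10). COL6A3 had 24, 38 and 25 counts in Ako-3 against 2, 1 and 0 in Mko-3, and COL16A1 rose to 3.0, 2.23 and 2.61 CPM in Mko-3. Of 7 markers of stellate cells and fibroblasts, COL3A1 was also one of the collagen falls, from a mean of 1.36 CPM to 0.387 CPM (-1.75 ± 0.43). PDGFRB was not called, at 4.93 and 2.97 CPM (-0.72 ± 0.20; adjusted p = 0.00243), and COL1A1, COL1A2, DCN, LUM and ACTA2 were below the filter of the test. The 7 summed to 5.60 to 9.26 CPM in Ako-3, 4.57 to 5.31 CPM in Mko-3 and 7.19 to 8.86 CPM in control, and the part of such cells in the collagen values was not tested.

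Of 22 markers of biliary, progenitor and oncofetal cells 3 rose (13.6%, against 2.26% of all genes) and none fell (median 0.27). KRT19, the keratin of bile ducts and progenitors, was at 13, 14.3 and 12.7 CPM in Ako-3, 73.4, 68.7 and 73.5 CPM in Mko-3 and 9.45, 9.37 and 9.44 CPM in control (2.42 ± 0.07). Ako-3 and control were both low and Mko-3 was far above them. A higher level in every cell and more cells expressing the gene cannot be told apart in bulk RNA. KRT23 rose by 1.06 ± 0.08, and CD44, an adhesion receptor, from 0.733, 0 and 0.116 CPM in Ako-3 to 1.93, 1.71 and 3.07 CPM in Mko-3. The Ako-3 mean of CD44 rested on 1 library, its log2 fold change of 3.03 ran from 2.39 to 5.18 when 1 library was left out (5.18 without Ako-3 replicate 1), and DESeq2 did not call it. The 5 cholangiocyte markers, KRT19 included, summed to 393 to 410 CPM in Ako-3, 514 to 524 CPM in Mko-3 and 423 to 463 CPM in control, with KRT7 at 0. SOX9, the most abundant of them, was at means of 257, 265 and 350 CPM in Ako-3, Mko-3 and control (0.04). EPCAM was at 128, 183 and 80.5 CPM in the same order (0.51), and the CFTR means were under 1 CPM. SOX9, EPCAM and CFTR were not called. The part of other cells in these results was not tested. Of 15 MAGE family and cancer-testis antigen genes 4 fell (26.7%, against 3.47% of all genes) and none rose (median -0.65). MAGEC2 was at 66.2, 62.8 and 62 CPM in Ako-3, 19.1, 21.4 and 20.4 CPM in Mko-3 and 11.9, 13.4 and 12.7 CPM in control, so both clones were above control. MAGEC1 and SSX1 fell by 1.72 and 1.17. MAGED1, a MAGE family member, was low in both clones, with 12, 21 and 18 counts in Ako-3 and 0, 1 and 2 in Mko-3 (under 0.2 CPM). MAGE genes have near copies.

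Interferon-stimulated and inflammatory genes went both ways. Of 35 interferon-stimulated genes 4 rose and 3 fell (20% called, against 5.73% of all genes). The median was 0.21, and glmTreat called 4. OAS1, an antiviral sensor of double-stranded RNA, was at 22.6, 19.4 and 21.1 CPM in Ako-3, 49.4, 41.5 and 44.8 CPM in Mko-3 and 29, 24.9 and 29.7 CPM in control, and GBP2, an interferon-induced GTPase, at 11.4, 10.4 and 10.4 CPM in Ako-3, 27.8, 26.2 and 25.6 CPM in Mko-3 and 29.4, 20.3 and 31.5 CPM in control. OAS2 and IFI6 also rose, by 3.05 and 1.14. BST2, tetherin, was at 17, 21.2 and 19.4 CPM in Ako-3, 3.91, 1.66 and 2.15 CPM in Mko-3 and 1.83, 0.792 and 1.05 CPM in control, and so was higher in Ako-3 than in the other groups. IFITM2 and IFI35 fell by 1.45 and 1.05. Among 26 chemokines and NF-kB targets, the neutrophil chemokines CXCL8 and CXCL3 rose and LCN2, CXCL10 and CCL16 fell (19.2% called). CXCL8 was at 49.8, 49.5 and 48.2 CPM in Ako-3, 124, 121 and 122 CPM in Mko-3 and 125, 123 and 111 CPM in control (1.31 ± 0.05), with Mko-3 at the control level. LCN2, lipocalin 2, was at 109.6, 103 and 104 CPM in Ako-3, 52.8, 43.1 and 53.8 CPM in Mko-3 and 123, 62 and 101 CPM in control (-1.09 ± 0.06). CXCL3 was at 0.94 without Ako-3 replicate 2 and LCN2 at -0.99 without Mko-3 replicate 2, and neither was then called. In the MHC class I list of 14 genes HLA-C rose and NLRC5 fell (14.3% called), at means under 3 CPM.

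Of the remaining lists, the actin genes had 1 rise and 1 fall among 37 (5.41% called, near the 5.73% of all genes). FLNC, a filamin, was at 145, 137 and 134 CPM in Ako-3, 317, 301 and 319 CPM in Mko-3 and 286, 283 and 301 CPM in control, and TMSB4X, which sequesters actin monomers, at 307, 328 and 323 CPM in Ako-3, 143, 138 and 155 CPM in Mko-3 and 80.0, 78.5 and 76.5 CPM in control. TMSB4X was thus highest in Ako-3 and lowest in control. In the Notch pathway NOTCH3 fell and NRARP and LFNG rose by 1.74 and 1.46, in 16 genes (18.75% called). Of 191 chromosome 19 ZNF genes 12 rose and 1 fell (median 0.17), which is 6.28% higher against 2.26% of all genes tested. Of these 13 calls glmTreat left 1, and 6 were called where every library had to hold at least 10 counts. ZNF331 was at 0.183, 0.356 and 0.0579 CPM in Ako-3 and 1.36, 1.6 and 1.5 CPM in Mko-3, and ZNF667, the gene that fell, at 4.52, 4.28 and 4.29 CPM in Ako-3 and 1.59, 1.54 and 2.09 CPM in Mko-3. Single calls were made among 19 clustered protocadherins (PCDHGB5, 1.06), 23 HOX genes (HOXB6, 3.0) and 14 imprinted genes (PHLDA2, 2.43). The shares called were 5.26%, 4.35% and 7.14%, around the 5.73% of all genes. HOXB6 and PHLDA2 passed the count filter only through Mko-3, so the filter favoured rises. In Ako-3 HOXB6 had 3, 4 and 1 counts and PHLDA2 4, 7 and 2. The HOX and imprinted lists held 0 calls where every library had to hold at least 10 counts. PCDHGB5 was at 0.99 without Mko-3 replicate 1, and the counts of called protocadherin and HOX genes rose to 3 without Ako-3 replicate 1 and Ako-3 replicate 3. In all, the 38 lists held 1134 distinct genes tested and 133 of the called genes, and 757 called genes were in no list.

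**Figure D4:**
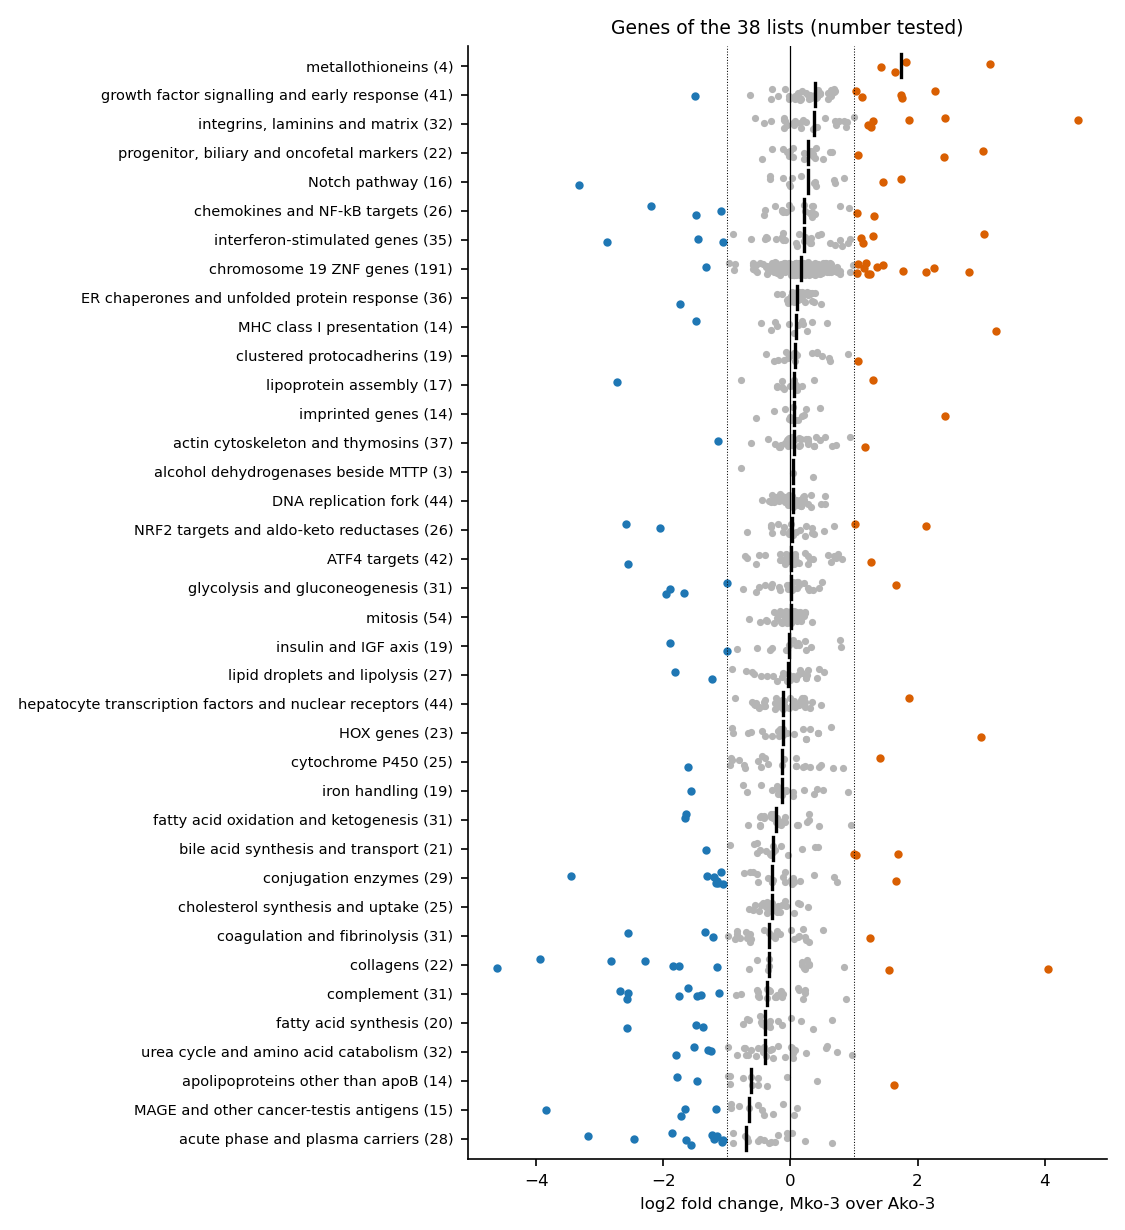
Log2 fold change of Mko-3 over Ako-3 for each gene tested in the 38 lists, ordered by the list median (black bar), with the number tested in brackets. Orange points were called higher in Mko-3, blue points lower and grey points not called, and dotted lines mark a log2 fold change of 1 in either direction. The acute phase and plasma carrier genes have the lowest median and the 4 metallothioneins the highest. Of the latter, MT1E, MT1F and MT1X passed the count filter only through Mko-3.

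Among genes of at least 5 CPM in the higher clone, the 12 widest rises included L1CAM and PKP3. L1CAM, a neural cell adhesion molecule, was at 0.611, 0.407 and 0.347 CPM in Ako-3, 21.9, 20.7 and 24.6 CPM in Mko-3 and 7.2, 6.07 and 6.44 CPM in control (5.61 ± 0.19; edgeR quasi-likelihood test, Benjamini-Hochberg adjusted p = 6.95e-39). PKP3, a desmosome protein, was at 0.244, 0.356 and 0.0579 CPM in Ako-3, 10.7, 8.85 and 10.2 CPM in Mko-3 and 0.591, 0.198 and 0.167 CPM in control (5.42 ± 0.28). For L1CAM the control lay between the clones, and for PKP3 it was as low as Ako-3. CEACAM7 and CEACAM5, surface glycoproteins of one family, rose by 3.28 ± 0.08 and 4.12 ± 0.25, CEACAM7 from 10.7, 8.4 and 9.09 CPM to 95.3, 84.3 and 94.4 CPM. Reads of these related genes may be shared. NPTXR, a neuronal pentraxin receptor, was at 5.01, 6.47 and 5.85 CPM in Ako-3, 58.5, 49.6 and 60.5 CPM in Mko-3 and 18.5, 13.3 and 14.4 CPM in control. The others of the 12 were the transcription factor CUX2 (5.08), the atypical cadherin FAT3 (4.78), the neuronal receptor component LINGO1 (4.74), WFDC2 (3.58), the GTPase RAC2 (3.57), the sphingosine-1-phosphate receptor S1PR3 (3.49) and the transcription cofactor VGLL3 (3.32). In Ako-3, CUX2 had 0, 7 and 5 counts, FAT3 2, 6 and 2 and LINGO1 4, 2 and 4, so their fold changes are imprecise. That of CUX2 ran from 4.56 to 5.65 when 1 library was left out. CUX2, FAT3 and WFDC2 were low in control as in Ako-3, whereas VGLL3, at 9.62, 6.34 and 9.27 CPM in control against 9.85, 9.94 and 11.5 CPM in Mko-3 and 1.04, 1.17 and 0.869 CPM in Ako-3, was low in Ako-3 alone.

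The widest falls by the same rule were ENPP4, MAP3K5, GAS7, COL2A1, GSTA1, LINC01234, NOTCH3, EFHD1, HP, LINC01127, WNT5A and TMEM132D-AS1. ENPP4, an ectonucleotide phosphodiesterase, was at 6.05, 6.42 and 4.69 CPM in Ako-3, 0.34, 0.457 and 0.196 CPM in Mko-3 and 4.3, 2.38 and 3.16 CPM in control (-4.06 ± 0.30). MAP3K5 encodes ASK1, a kinase of stress signalling, and was at 5.38, 4.33 and 5.44 CPM in Ako-3, 0.227, 0.343 and 0.326 CPM in Mko-3 and 1.13, 0.924 and 0.999 CPM in control (-4.05 ± 0.31). NOTCH3, a Notch receptor, was at 17.8, 14 and 12.8 CPM in Ako-3, 1.02, 1.37 and 2.09 CPM in Mko-3 and 12.7, 7.99 and 11.4 CPM in control, so that Mko-3 alone was low. WNT5A, a noncanonical Wnt ligand, was at 23.7, 26.1 and 20.4 CPM in Ako-3, 3.28, 2.86 and 2.68 CPM in Mko-3 and 8.7, 6.6 and 6.72 CPM in control (-2.99 ± 0.13). EFHD1, a mitochondrial calcium binding protein, was at 12.4, 11.7 and 10.3 CPM in Ako-3, 1.19, 1.89 and 0.587 CPM in Mko-3 and 12.1, 10.7 and 12.2 CPM in control, and GAS7 fell by 3.96. The long noncoding RNAs LINC01234 and LINC01127 fell by 3.4 and 3.03. TMEM132D-AS1 fell by 2.97, but whether the counts used strand is not given in the sources used here, so its reads cannot be told from those of a gene on the opposite strand.

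Some genes were at the floor of detection in one clone. At most 3 counts in every Ako-3 library and more than 3 in every Mko-3 library were found for 89 genes, and the reverse for 143. The mean level in the other clone reached 1 CPM for 6 and 12 of them. UGT3A1, a glycosyltransferase, had no count in Ako-3 or control and 44, 15 and 23 counts in Mko-3, at least 9.51-fold higher against a floor of 3 counts per library. KCTD19 had no count in Mko-3 and 36, 29 and 27 counts in Ako-3, at least 9.76-fold lower in Mko-3 by the same floor, and was at 0.967, 0.99 and 1.22 CPM in control. GBP5, an interferon-induced GTPase, had 1, 2 and 1 counts in Ako-3 and 41, 45 and 30 in Mko-3. HDGFL3 had 56, 66 and 53 counts in Ako-3 and 0, 1 and 1 in Mko-3, and SAGE1, a cancer-testis antigen, 61, 38 and 59 against 1, 1 and 2. KRT20, a keratin, was at the floor in Ako-3 and at 1.76, 1.6 and 1.37 CPM in Mko-3. The receptor GLP1R was likewise at the floor in Ako-3 and at 1.36, 1.09 and 1.5 CPM in Mko-3, and CDH11, a cadherin, was at the floor in Mko-3 and at 2.08, 2.04 and 0.984 CPM in Ako-3.

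The control libraries place these differences without a test. On log2(CPM + 0.5), the control mean lay between the clone means for 526 of the 890 called genes, above both for 222 and below both for 142. It was nearer to Ako-3 for 522 and nearer to Mko-3 for 368. Every control library lay between the clones for 211. Among genes higher in Mko-3, the control mean was nearer to Ako-3 for 195 of 351, and among genes lower in Mko-3 for 327 of 539. The control mean was above both clones for 153 of the genes lower in Mko-3, as for COL2A1, COL6A1 and MLXIPL.

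The difference between the clones was not spread evenly over the genome. In windows of 10 Mb with at least 15 genes tested, 281 in all, the median log2 fold change was above 0.2 in 15 and below -0.2 in 13. The lowest was on chromosome 6 between 80 and 90 Mb, at -0.55, where 1 of 41 genes was above 0, and the window before it was at -0.40. Against the control means, the genes of the 80 to 90 Mb window had a median of 0.37 in Ako-3 and -0.16 in Mko-3. The highest were on X between 10 and 30 Mb, at 0.48 and 0.43. On chromosome 1 all windows from 10 to 70 Mb were above 0.2, and 89 of the 97 genes between 30 and 40 Mb were above 0. On chromosome 4, the 351 genes before MTTP had a median of 0.06 and the 227 after it of -0.19, and 29.5% of the latter were above 0. Of the 20 tested genes nearest to MTTP 3 were called, against 5.73% of all genes tested. These were AC083902.1, BANK1 and AC098487.1, all lower in Mko-3. None of the 20 nearest to APOB was called. In edgeR the unadjusted p was under 0.05 for 10 of the 20 near MTTP and 8 of the 20 near APOB. Over all genes tested, 41.6% passed even the adjusted p of 0.05. DESeq2 called 0 of the 20 near APOB and 2 of the 20 near MTTP. The alcohol dehydrogenase genes beside MTTP were not called by edgeR or DESeq2, although 1 of the 3 tested had an unadjusted p under 0.05 in edgeR, with ADH6 at -0.78 ± 0.09. Over whole chromosomes the medians ran from -0.12 for chromosome 20 to 0.13 for chromosome 1, and the 27 mitochondrial genes were at -0.27. DNA copy number was not measured in these files.

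**Figure D5:**
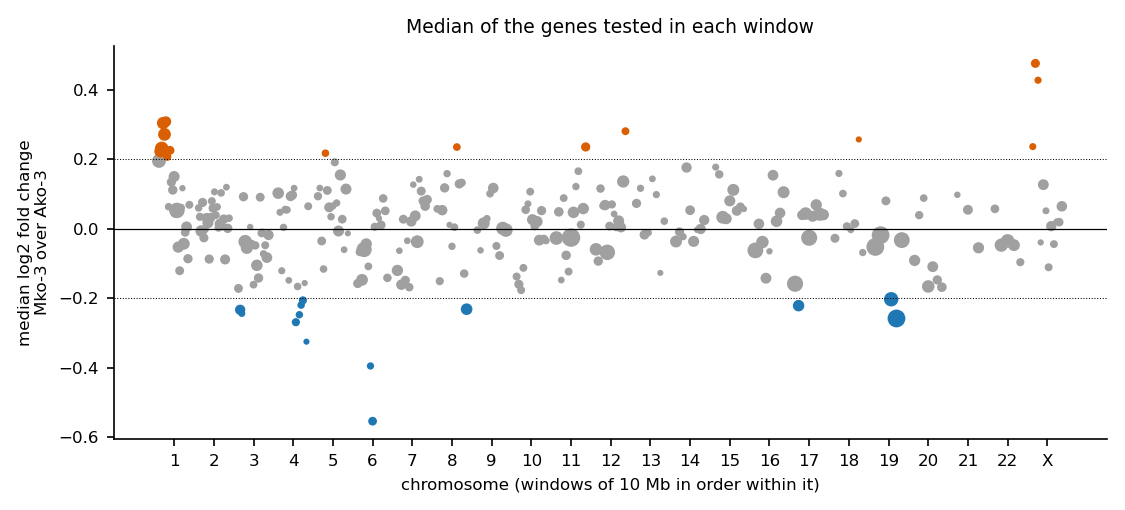
Median log2 fold change of Mko-3 over Ako-3 in each 10 Mb window with at least 15 genes tested, in order within each chromosome, with the area of a point growing with the number of genes. Orange and blue points lie beyond 0.2 in either direction (dotted lines). Runs of neighbouring windows on chromosomes 1, 4, 6 and X lie to one side of 0.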

How the data were processed

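Poly-A mRNA libraries of Huh-7 control, Ako-3 and Mko-3 cells (3 each) were sequenced as paired reads. Alignment to hg38 was done by the authors with HISAT2 2.0.5; they counted reads on genes with featureCounts 1.5.0-p3 and deposited raw counts of 58735 genes per library. They also deposited FPKM values, made from these counts and gene lengths, which were read but not used in a test. The annotation release and the strand setting are not given in the sources used here. The submitters' processing notes name more than 1 genome build; gene positions in the table overlapped GENCODE v44 (GRCh38) for 99.97% of shared gene identifiers. Gene names in 27 rows had been turned into dates and were not named.

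Groups came from the sample labels. Mko-3 was compared with Ako-3 by edgeR 4.0.16 (R 4.3.3) with TMM scaling, filterByExpr at a minimum count of 10, a robust quasi-likelihood F test and Benjamini-Hochberg adjustment over 15528 genes. A call needed a log2 fold change of 1 or more in either direction and an adjusted p of at most 0.05, as in the study. The study used DESeq2 (here 1.42.0), which served as an alternative. The 3 control libraries stayed out of the fit. CPM were scaled by TMM over the 9 libraries, so levels and fitted fold changes have slightly different scaling. At 14638727 to 20179760 counts per library, a floor of 3 counts was used, which covers counting error only. Replicates of a clone differed by more than sampling noise, so none was a repeat deposit. An exact permutation test of 3 against 3 libraries cannot reach 0.05 and was not used.

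The members and the 38 gene lists were chosen with earlier results of these data known. Named genes were APOB, MTTP and the genes of the study's qRT-PCR, the 12 widest rises and falls of at least 5 CPM in the higher clone without overlap of libraries, up to 4 called members of each list by adjusted p (or the first where none was called), and 5 genes at the floor in each clone. Other members were named after their values were seen. Some genes this rule named are not reported here. Of the list symbols, 2 were not matched. The script was tested on simulated data. Sequences came from GRCh38, the study's primer table and RefSeq promoters.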

Additional observations from a re-analysis of the deposited data

How the results depend on the processing

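APOB and MTTP kept their direction and their call under every alternative run. The number of genes called, 890 in the report, was 897 with RLE size factors, 894 without mitochondrial genes, 930 with all 9 libraries in the fit, 1096 with no filter on low counts and 809 with DESeq2, of which 742 were shared with the 890. It was 316 (143 higher and 173 lower in Mko-3) when glmTreat tested against a log2 fold change of 1, which asks more of each gene. It was 511 (193 higher and 318 lower) where all 6 libraries had to hold at least 10 counts, which removes genes that are low in one clone and tests 14101. Leaving out 1 library gave 895 to 964 genes, 339 to 387 of them higher and 520 to 609 lower, with 776 to 809 shared with the 890.

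With the replicate number as a block 899 genes were called, 353 higher and 546 lower, of which 885 were shared. The numbers do not pair the libraries, since the correlations of same-numbered deviations were 0.018, 0.009 and 0.072, and the block changed no call of a named gene.

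ATF6, which was not called, turned to 0.025 without Mko-3 replicate 1 (range -0.079 to 0.025 when 1 library was left out), and the cause was not tested. Of the other alternative values of single genes and lists, 65 lost the call and 85 moved. Low genes carry the widest errors: PLIN1, PPARGC1A, SLCO1B3, CYP8B1 and CD44 were not called by DESeq2. Depth limits statements on genes under 1 CPM, and 1 clone per knockout limits all of them.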
